A study of Mus musculus with 3 samples.

Results

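Cyclin-dependent kinase inhibitors are small proteins that stop the cell cycle by binding the kinases that drive it. The genes followed here were Cdkn1a, Cdkn1b, Cdkn1c, Cdkn2a, Cdkn2b, Cdkn2c, Cdkn2d and Cdkn3, taken as every probe that carried one of these names on the array. They made up 8 of the 22328 genes with a probe and 13 of the 31381 probes joined to a gene. All 13 probes were detected on all 3 arrays.

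Cerebral cells of C57BL6/J mice were dissociated on embryonic day 18, cultured, and treated on day 10 in vitro for 24 h. The 3 treatments were 1 mM valproate with 0.1% DMSO, 100 µM lamotrigine with 0.1% DMSO, and 0.1% DMSO alone, so the solvent was common to all cultures. Valproate, an antiepileptic drug that inhibits class I histone deacetylases, was set against DMSO to describe the response to that inhibition. Lamotrigine, an antiepileptic drug that blocks sodium channels, was not part of that study, per the labels, and serves here as another drug in the same solvent. There was 1 RNA sample and 1 array per treatment, all on 1 slide, so no difference between treatments has a replicate check and no p-value is given.

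The CIP/KIP family (Cdkn1a, Cdkn1b and Cdkn1c, encoding p21, p27 and p57) binds complexes of cyclin and kinase, mainly those of CDK2. The INK4 family (Cdkn2a, Cdkn2b, Cdkn2c and Cdkn2d) binds CDK4 and CDK6 and keeps them from D-type cyclins, which leaves the retinoblastoma protein active and E2F target genes silent. Cdkn3 encodes a phosphatase that removes an activating phosphate from CDK2 and belongs to neither family. In the developing cortex these inhibitors take part in the exit of progenitors from the cell cycle, and p21 is widely used as a readout of histone deacetylase inhibition.

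RefSeq start sites (build GRCm38.p6) were found for 7 of the 8 genes, with 10 start sites in all, and the 250 bases before each were searched. The 2 starts of Cdkn1a are shown because 1 of its probes reads a single transcript, and 1 start each of Cdkn2a and Cdkn2c because these genes had the highest and the lowest valproate difference from DMSO in the INK4 family. Lower case is 5′ to 3′ on the gene's own strand. Capitals mark the GC box GGGCGG (searched on both strands), the element bound by Sp1, or exact matches to the p53 half-site RRRCWWGYYY. In that pattern R is A or G, W is A or T, and Y is C or T.

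Cdkn1a upstream start, chr17:29090729-29090978 (+): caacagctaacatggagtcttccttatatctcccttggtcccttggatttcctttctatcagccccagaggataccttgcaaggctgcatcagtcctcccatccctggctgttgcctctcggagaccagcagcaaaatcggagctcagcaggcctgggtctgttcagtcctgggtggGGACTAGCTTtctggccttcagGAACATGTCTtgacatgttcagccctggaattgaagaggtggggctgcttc

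Cdkn1a downstream start, chr17:29093519-29093768 (+): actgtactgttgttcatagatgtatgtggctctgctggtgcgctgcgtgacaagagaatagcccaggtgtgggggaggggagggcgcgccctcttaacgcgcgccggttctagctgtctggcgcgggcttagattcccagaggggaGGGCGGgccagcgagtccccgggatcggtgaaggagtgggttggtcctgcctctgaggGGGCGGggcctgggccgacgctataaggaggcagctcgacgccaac

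Cdkn2a upstream start, chr4:89294620-89294869 (-): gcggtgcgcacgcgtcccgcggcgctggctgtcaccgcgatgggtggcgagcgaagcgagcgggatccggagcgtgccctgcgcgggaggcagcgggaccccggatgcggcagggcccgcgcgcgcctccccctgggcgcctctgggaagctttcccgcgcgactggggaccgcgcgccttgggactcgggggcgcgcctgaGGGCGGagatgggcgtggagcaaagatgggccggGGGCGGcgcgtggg

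Cdkn2c upstream start, chr4:109666757-109667006 (-): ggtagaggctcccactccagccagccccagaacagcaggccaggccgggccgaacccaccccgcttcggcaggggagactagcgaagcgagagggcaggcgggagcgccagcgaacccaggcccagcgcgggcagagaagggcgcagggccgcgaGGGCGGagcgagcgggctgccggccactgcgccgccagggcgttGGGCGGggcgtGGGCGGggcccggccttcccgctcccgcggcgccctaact

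The window of the upstream Cdkn1a start held 2 exact p53 half-sites with 12 bases between them, which began 73 and 51 bases before the start, and 0 GC boxes. The bases directly after the second of these, tgacatgttc, depart from the pattern at their first base alone. Inexact half-sites were not searched for, so that stretch is unmarked and the spacing covers exact matches only. Apart from Cdkn1a, only the window of Cdkn2d held an exact p53 half-site, 1 that began 102 bases before the start. Of 32851 mouse promoters in the table, 7.13% held at least 1 half-site and 0.0639% held 2 with up to 13 bases between them. The downstream Cdkn1a start had 2 GC boxes, as did the upstream start of Cdkn2a, and the upstream start of Cdkn2c had 3. A GC box lay in 32.7% of all promoters. Cdkn1b and Cdkn3 had 1 GC box each, Cdkn2d had 3 and Cdkn2b had 0. The downstream starts of Cdkn2a and Cdkn2c had 0. Among the 7 genes with a window, Cdkn1a, Cdkn2a, Cdkn2b and Cdkn3 were beyond 2 technical SD above DMSO with valproate. Of these, GC boxes lay before Cdkn1a, Cdkn2a and Cdkn3 but not before Cdkn2b. GC boxes also lay before the others (Cdkn1b, Cdkn2c and Cdkn2d). Cdkn1c had no window.

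In the valproate culture, by the brightest probe of each gene, Cdkn1c and Cdkn2a had at least 2-fold the level of the DMSO culture, at 2.51-fold and 2.13-fold; Cdkn2a fell just short of 2-fold under 2 of 9 alternatives. Cdkn3 and Cdkn1a were higher by less, at 1.49-fold and 1.43-fold, and the other 4 genes lay within 1.18-fold of DMSO. At the 2-fold threshold, 2 of the 8 genes were higher and 0 were lower, beside 2.09% of 14346 genes higher and 1.42% lower. At 3-fold, 0 of the 8 were higher or lower, beside 0.523% and 0.237% of all genes. On the log2 scale 6 of 8 genes lay above 0, beside 39.3% of all genes. Scaling on spike-in control RNA moved the median log2 difference of all genes from -0.08 to 0.27 and the numbers of genes past 2-fold from 300 higher and 203 lower to 744 higher and 77 lower. The members moved with that shift, and those that changed sign are named below.

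Levels are given as scaled signal, the processed spot intensity set so that the 75th percentile of an array is 100, and are compared only within a probe. The error beside a log2 difference is the technical SD, taken at like brightness from the detected ones among 399 probes printed 10 times, which were 282 on the valproate, 265 on the DMSO and 268 on the lamotrigine array. It holds spot-to-spot noise within an array and no spread between cultures. The 75th percentile of raw signal was 372 to 478, and 49.6% to 52.9% of spots were well above background.

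**Figure D1:**
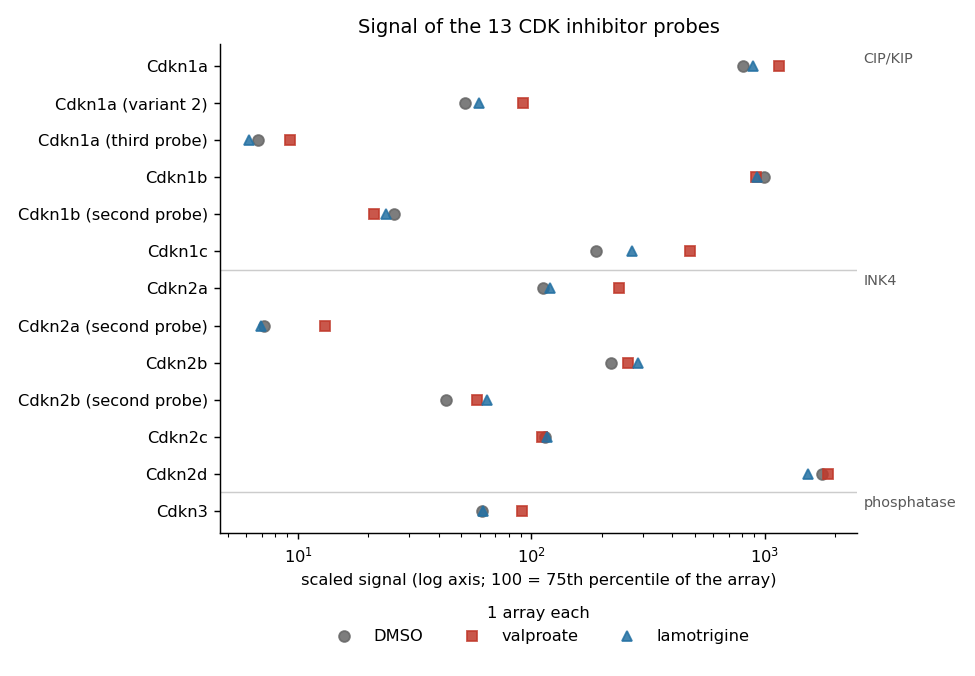
Scaled signal of each of the 13 probes (log axis, 100 is the 75th percentile of the array) on the DMSO, valproate and lamotrigine arrays, 1 point per array. The valproate point is the rightmost for Cdkn1a, Cdkn1c, Cdkn2a, Cdkn2d and Cdkn3, and the lamotrigine point is the rightmost for both Cdkn2b probes (level with valproate, 0.01 apart on the brighter probe, with spike-in scaling); "variant 2" is the probe for a single Cdkn1a transcript.

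Cdkn1a, a target of p53, was read by 3 probes. The probe common to both RefSeq transcripts (mm9 chr17:29237377-29237436, printed 10 times) gave a scaled signal of 1156 with valproate, 806 with DMSO and 894 with lamotrigine. Its 10 spots ranged from 1105 to 1205, from 770 to 823 and from 843 to 937, so the 3 arrays did not overlap. The log2 difference from DMSO was 0.52 ± 0.02 (technical SD) with valproate and 0.15 ± 0.02 with lamotrigine. Over the 8 alternatives that apply to a single probe, these lay between 0.52 and 0.87 and between 0.15 and 0.35. Each was highest with spike-in scaling, and the technical SD does not hold this spread over processing.

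The Cdkn1a probe that matches transcript variant 2 alone (chr17:29227986-29228045) lay 9391 bases 5′ of the first. It had a scaled signal of 91.9 with valproate, 52.1 with DMSO and 59.5 with lamotrigine. Its valproate difference from DMSO, 0.82 ± 0.12, was larger than that of the common probe by 0.30 (technical SD 0.12). That gap passed 2 technical SD but was 0.20 with quantile normalization, 0.21 in the authors' deposited table and 0.06 with normexp, each within 2 technical SD. Its lamotrigine difference, 0.19 ± 0.13, was within the noise of the common probe's. The files do not pair this transcript with one of the 2 start sites printed above. The third probe (chr17:29235299-29235358) was dim, at 9.25, 6.72 and 6.18, and its differences of 0.46 ± 0.28 and -0.12 ± 0.27 did not pass 2 technical SD. The first turned to -0.07 with normexp and the second to 0.08 with spike-in scaling.

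Cdkn1b, whose product p27 holds resting cells out of the cycle, had its highest signal in DMSO, though not with spike-in scaling. The brighter of its 2 probes (chr6:134875424-134875483) read 912 with valproate, 995 with DMSO and 925 with lamotrigine. The log2 differences of -0.12 ± 0.07 and -0.11 ± 0.07 did not pass 2 technical SD, and both turned positive with spike-in scaling, to 0.23 and 0.10. The other probe, 1818 bases 5′, read 21.3, 25.8 and 23.7, the same order over the 3 arrays without passing 2 technical SD.

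Cdkn1c, an imprinted gene whose product p57 restrains the division of progenitors, had the largest valproate difference of the 8 genes under all 9 alternative sets of levels as well. Its 1 probe (chr7:150644753-150644812, minus strand) gave 477 with valproate, 190 with DMSO and 270 with lamotrigine. The 3 arrays were each apart by more than 2 technical SD, with lamotrigine between the others. The log2 difference from DMSO was 1.33 ± 0.08 with valproate and 0.51 ± 0.09 with lamotrigine. Of 14346 genes, 136 had a higher valproate difference.

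**Figure D2:**
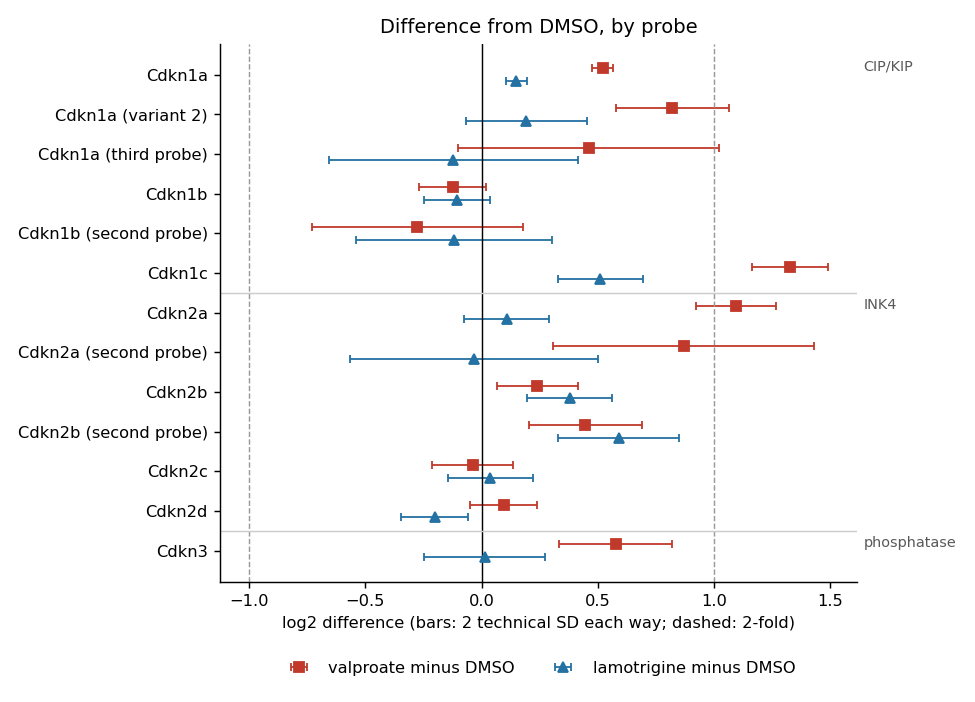
Log2 difference from DMSO of each probe for valproate and lamotrigine, with bars of 2 technical SD each way and dashed lines at 2-fold. Cdkn1c at 1.33 and the brighter Cdkn2a probe at 1.09 are the valproate points past the dashed line, and no lamotrigine point is.

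Among the INK4 genes, Cdkn2a stood apart from the other 3 with valproate. This locus encodes p16 and, from another first exon and reading frame, ARF, which protects p53 by binding Mdm2. Its brighter probe (chr4:88920405-88920464, minus strand) read 238 with valproate, 112 with DMSO and 120 with lamotrigine. The valproate difference from DMSO was 1.09 ± 0.09, and lamotrigine, at 0.11 ± 0.09, was within the noise of DMSO. The second probe, 138 bases 5′, read 12.99, 7.11 and 6.95, a valproate difference of 0.87 ± 0.28 that shrank to 0.03 with normexp background correction. The brighter probe lay just under 2-fold, at 0.98, with that correction, and so did the mean of both probes, at 0.98. The array's annotation assigns both probes to both RefSeq transcripts, so p16 and ARF cannot be told apart. Of 14346 genes, 233 had a higher valproate difference than Cdkn2a.

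Cdkn2b, the neighbour of Cdkn2a that encodes p15, had its highest signal with lamotrigine, level with valproate under spike-in scaling. Its brighter probe (chr4:88952276-88952335) read 259 with valproate, 220 with DMSO and 286 with lamotrigine. The second probe, 444 bases 5′, had the same order, at 58.6, 43.0 and 64.7. On the brighter probe the differences from DMSO were 0.24 ± 0.09 with valproate and 0.38 ± 0.09 with lamotrigine, and on the second probe 0.45 ± 0.12 and 0.59 ± 0.13 (0.22 and 0.35 with normexp). Each of these 4 passed 2 technical SD, while valproate and lamotrigine differed by less (-0.14 on either probe, turning to 0.01 on the brighter probe with spike-in scaling).

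Cdkn2c, which encodes p18, read 111 with valproate, 114 with DMSO and 117 with lamotrigine (chr4:109333508-109333567). Its differences from DMSO were -0.04 ± 0.09, turning to 0.31 with spike-in scaling, and 0.04 ± 0.09. No pair of arrays was apart by 2 technical SD.

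Cdkn2d, which encodes p19 of the INK4 family and is known from postmitotic neurons, read 1872 with valproate, 1754 with DMSO and 1524 with lamotrigine (chr9:21092934-21092993). The valproate difference from DMSO, 0.09 ± 0.07, was within the noise, but was 0.20 with quantile normalization and 0.22 in the authors' deposited table. The lamotrigine difference, -0.20 ± 0.07, was beyond 2 technical SD and was the only one of the 13 probes to be lower than DMSO by that measure, but it was -0.11 with quantile normalization and in the authors' deposited table, and -0.00012 with spike-in scaling.

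Cdkn3, whose transcript is abundant in dividing cells, read 91.3 with valproate, 61.2 with DMSO and 61.7 with lamotrigine (chr14:47386895-47386954). Its valproate difference from DMSO was 0.58 ± 0.12. Lamotrigine lay at 0.01 ± 0.13, indistinguishable from DMSO by spot noise.

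With the families set against each other, the median valproate difference from DMSO was 0.52 over the 3 CIP/KIP genes and 0.17 over the 4 INK4 genes, a gap of 0.35. The families overlapped, from -0.12 to 1.33 in CIP/KIP and from -0.04 to 1.09 in INK4, and the gap was smaller than the SD over genes within either (0.73 and 0.51). Each family had 1 gene past 2-fold. Without Cdkn1c the CIP/KIP median was 0.20 over 2 genes, and without Cdkn2a the INK4 median was 0.09 over 3. The median of all 8 genes was 0.38, beside -0.08 over all genes tested. By probe, 8 of 13 were higher with valproate beyond 2 technical SD and 0 were lower, beside 15.8% higher and 31.3% lower among 26538 probes. Cdkn1a, Cdkn2a and Cdkn2b each gave more than 1 of these 8 probes, and Cdkn1c and Cdkn3 gave 1 each. Here and in the comparisons below, the share over all probes includes probes joined to no gene.

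**Figure D3:**
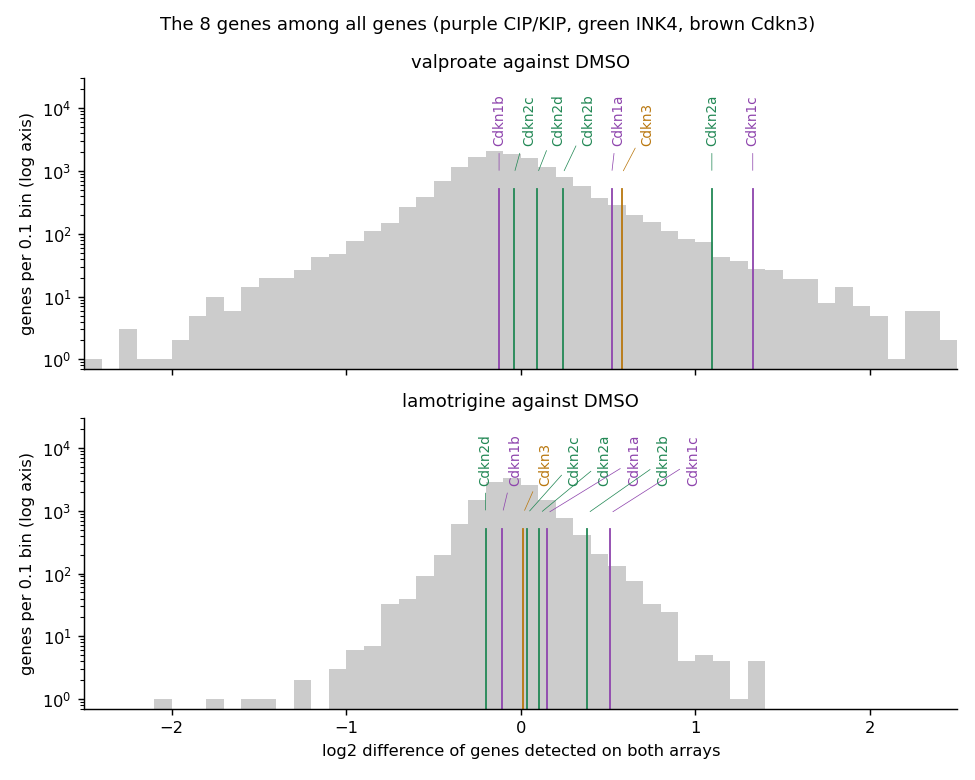
Numbers of genes per 0.1 bin of log2 difference from DMSO (log axis) for valproate above and lamotrigine below, with each of the 8 genes as a vertical line; genes beyond the ends of the axis are not drawn. Cdkn1c at 1.33 and Cdkn2a at 1.09 lie in the upper tail with valproate, and with lamotrigine all 8 lie between -0.20 and 0.51.

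With lamotrigine, none of the 8 genes reached 2-fold of DMSO (0 higher and 0 lower), beside 0.0976% of 14340 genes higher and 0.0628% lower. Cdkn1c, at 0.51, and Cdkn2b, at 0.38, were the highest, with 257 and 546 genes above them. Among 13 probes, 4 were higher beyond 2 technical SD and 1 was lower, beside 8.08% higher and 17.5% lower among 26501 probes. The 4 higher probes read Cdkn1a, Cdkn1c and Cdkn2b, the last by both of its probes. On the log2 scale 6 of 8 genes lay above 0, beside 39.8% of all genes. The family medians were 0.15 for CIP/KIP and 0.07 for INK4 (0.07 and 0.04 with the mean of detected probes), and the median of all 8 was 0.07, beside -0.05 over all genes. The numbers of genes past 2-fold were 14 higher and 9 lower, which became 43 and 6 with spike-in scaling and 11 and 15 with quantile normalization. This comparison and the valproate comparison share the DMSO array, so their values are given side by side and their likeness was not measured.

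Between the 2 drugs, no gene of the 8 was 2-fold apart (0 higher and 0 lower), beside 2.06% of 14544 genes higher and 1.69% lower. Cdkn2a, 1.98-fold higher with valproate than with lamotrigine (log2 0.99), lay just inside the threshold, and it passed 2-fold with spike-in scaling and in the authors' deposited table. Cdkn1c was 1.76-fold higher with valproate (0.82 ± 0.08), a smaller gap than to DMSO. Cdkn3 differed by 0.56 ± 0.12, Cdkn1a by 0.37 ± 0.02 and Cdkn2d by 0.30 ± 0.07, each higher with valproate. At 1.5-fold, 2 of the 8 were higher with valproate and 0 lower, beside 6.17% and 5.84% of all genes, and 5 of 8 lay above 0, beside 45.3%. Of 13 probes, 8 were higher with valproate beyond 2 technical SD and 0 were lower, beside 17.6% and 24.2% of 27213 probes. These 8 probes read Cdkn1a, Cdkn1c, Cdkn2a, Cdkn2d and Cdkn3, with several probes for Cdkn1a and Cdkn2a. The 2-fold counts over all genes were 300 higher and 246 lower, and 447 and 165 with spike-in scaling.

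**Figure D4:**
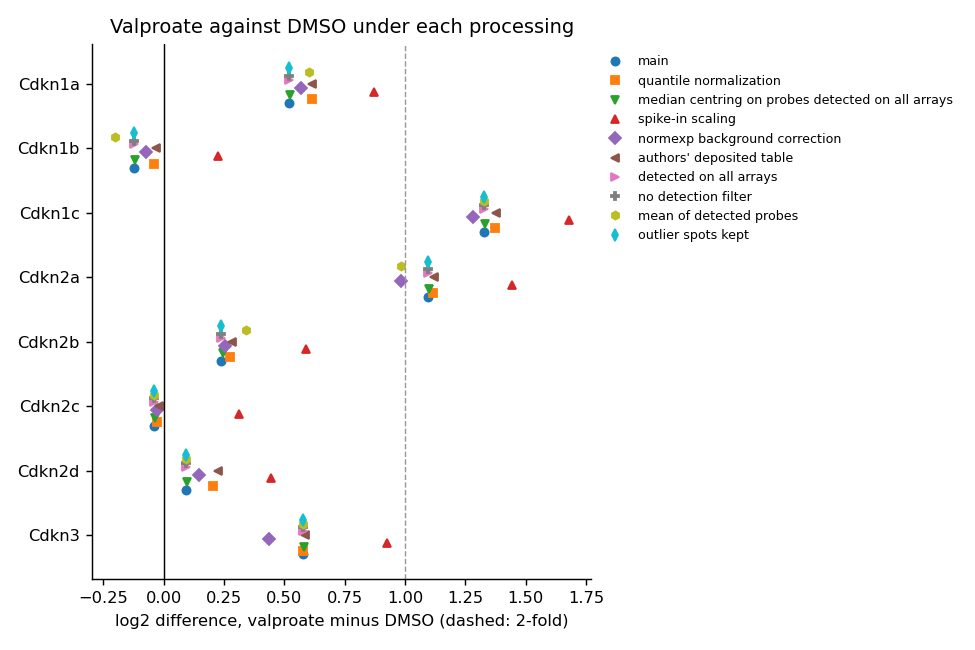
Valproate minus DMSO log2 difference of each gene under the main processing and 9 alternatives, with a dashed line at 2-fold. Cdkn1c lies between 1.28 and 1.68 throughout, Cdkn2a between 0.98 and 1.44 on either side of the line, and Cdkn1b and Cdkn2c change sign with spike-in scaling.

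The kinases and cyclins that the inhibitors bind were described next, from lists of known genes. With valproate 39.3% of all genes lay above 0, the share to set beside the counts that follow. Of 4 measured genes for CDK4 and the D-type cyclins, 3 lay above 0 with valproate (median 0.32). Ccnd2, a D-type cyclin, was at 0.51, and Cdk4, a kinase that INK4 proteins bind, was at -0.35, with 0 past 2-fold. Cdk6 was not detected on any array. The list of CDK2 and CDK1 with their cyclins also held the phosphatase genes Cdc25a, Cdc25b and Cdc25c. Of its 10 measured genes, 9 lay above 0 (median 0.48). The phosphatase genes were at 0.50, 0.53 and 0.60, and were named after their values were seen. Ccne1, the cyclin E that activates CDK2, was past 2-fold, with 741 with valproate, 321 with DMSO and 325 with lamotrigine. Of 15 E2F target genes of DNA replication, 14 lay above 0 (median 0.44, and 0.29 with normexp). Among them were Mcm2, a subunit of the replicative helicase, at 0.78 ± 0.09, and Tyms, which makes thymidylate, at 0.77 ± 0.28. The Tyms probe was dim, at 19.8 with valproate and 11.6 with DMSO. In the list of retinoblastoma and E2F genes 8 of 13, 1 of them a bound, lay above 0, and the median of 0.17 fell to 0.01 with normexp and 0.10 with detection required on all 3 arrays. This list was led by E2f2 at 0.65 and E2f1 at 0.59, the transcription factors that open S phase. With lamotrigine the medians of the first 3 of these lists were 0.08, -0.03 and -0.02, and the negative ones took the other sign under 3 and 4 of the 9 alternatives.

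The valproate culture thus had higher levels of 2 inhibitors past 2-fold together with higher medians of the cyclin and replication lists. Of the proliferating cell markers, 7 of 8 were detected on each array (Aurkb was not), and 7 of 7 lay above 0 with valproate (median 0.52). Among these markers Pcna, Mcm2, Cdk1 and Ccnb1 are also in the lists above. The summed scaled signal was 6244 with valproate, 4891 with DMSO and 4901 with lamotrigine. All 8 astrocyte markers were detected, and their summed signal was 20774 with valproate, 40874 with DMSO and 40178 with lamotrigine. Aldoc made up most of the DMSO sum, and without it the sums were 10701, 14879 and 14573. All 9 neuron markers were detected, at 22920, 30862 and 27046. Among microglial markers 5 of 7 were detected, with Cx3cr1 and P2ry12 not detected on any array, and the summed signal was 1516 to 1652. Itgam made up most of that signal, and without Itgam the sums were 215 with valproate, 252 with DMSO and 251 with lamotrigine. The median valproate differences from DMSO were -0.50 for astrocyte, -0.29 for neuron, -0.32 for oligodendrocyte lineage, -0.30 for fibroblast, -0.24 for neural progenitor, -0.08 for microglial and 0.20 for endothelial and mural markers, each 0.35 higher with spike-in scaling. The endothelial and mural median covered 5 genes, 2 of them bounds, and 3 of 7 of these markers were detected with DMSO. The oligodendrocyte median covered 8 genes, 1 of them a bound. The part of these markers in the differences of the inhibitors was not tested. In these bulk samples, fewer cells of a type and less RNA per cell cannot be told apart.

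The p53 pathway is a regulator of Cdkn1a. Of 6 genes of p53 and ARF signalling, 1 lay above 0 with valproate (median -0.15, -0.09 with quantile normalization and 0.20 with spike-in scaling). Trp73, a p53 relative, was at -0.67 ± 0.23 on a dim probe (17.4 with valproate and 27.6 with DMSO). Npm1, an ARF partner, was at -0.27. Trp53 itself was at -0.02 and Mdm2, the ligase that degrades p53, at 0.09; these were named after their values were seen. Of 19 measured p53 target genes other than Cdkn1a, 16 lay above 0 with valproate (median 0.28) and 15 of 20, 1 of them a bound, with lamotrigine (median 0.18, and 0.11 with normexp), beside 39.3% and 39.8% of all genes. Past 2-fold were Pmaip1, a cell death gene, with 455 with valproate, 194 with DMSO and 229 with lamotrigine, and Perp, a membrane protein gene, with 425, 185 and 202.

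**Figure D5:**
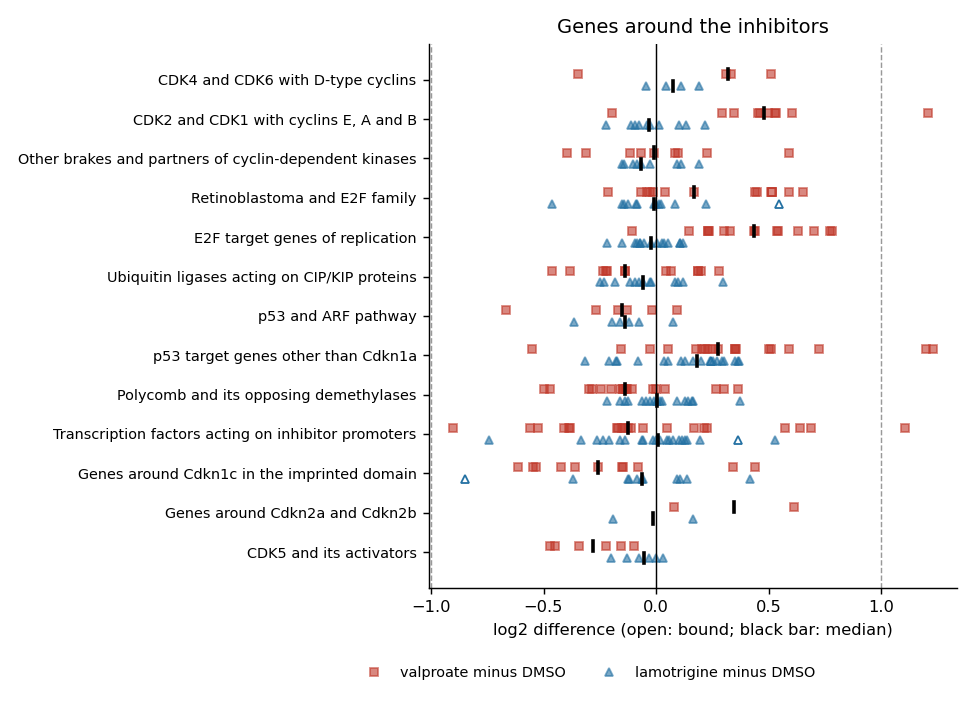
Log2 difference from DMSO of the genes in 13 lists around the inhibitors, for valproate and lamotrigine, with the median of each list as a black bar, open points for bounds and dashed lines at 2-fold. The valproate medians are above 0 for the cyclin lists (0.32 and 0.48), the replication list (0.44) and the p53 targets (0.28). The list with 0.48 also holds Cdc25a, Cdc25b and Cdc25c. The median is below 0 for the list labelled CDK5 and its activators (-0.28, turning positive with spike-in scaling), which also holds Cdk5rap1, Cdk5rap2 and Cdk5rap3.

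Lists of regulators gave medians below or near 0 with valproate, as did all genes (median -0.08, with 60.7% below 0). Polycomb proteins silence the Cdkn2a locus. Of 18 genes of Polycomb proteins and the demethylases that oppose them, 14 lay below 0 (median -0.14, and 0.21 with spike-in scaling). Ring1 was at -0.50 and Cbx8, a dim probe, at -0.47 ± 0.23, and the demethylase genes Kdm6a and Kdm6b were at -0.0015 and -0.20. Above 0 were the Polycomb genes Cbx2 at 0.36, Suz12 at 0.30, Ezh2 at 0.26 and Eed at 0.04. Kdm6a, Kdm6b and the genes above 0 were named after their values were seen. Among 21 transcription factors that act on inhibitor promoters, 8 lay above 0 and 13 below (median -0.12, and 0.23 with spike-in scaling). Cebpa, a factor that arrests growth, was past 2-fold at 1.11 ± 0.21, with 35.3 with valproate, 16.4 with DMSO and 13.7 with lamotrigine. The lowest was Id4 at -0.90 ± 0.08, with 302, 564 and 611. With valproate it was also more than 2-fold below lamotrigine (-1.02). Id4 was named after its values were seen. Among 13 genes of ubiquitin ligases that degrade CIP/KIP proteins the median was -0.14 (-0.03 with quantile normalization and 0.21 with spike-in scaling), with Rbx1 at -0.46 and Ddb1 at -0.38, both shared ligase subunits. Other brakes and partners of the kinases had a median of -0.01, which took the other sign under 4 alternatives, with Wee1, an inhibitory kinase of CDK1, at 0.59 and Cdk2ap1, a CDK2 partner, at -0.39. CDK5 is a kinase of postmitotic neurons that acts outside the cell cycle. Its list held Cdk5, the activators Cdk5r1 and Cdk5r2, and the associated protein genes Cdk5rap1, Cdk5rap2 and Cdk5rap3. Of these 6 genes, 0 lay above 0 (median -0.28, and 0.07 with spike-in scaling). Cdk5r1 was at -0.47 and Cdk5r2, within 2 technical SD, at -0.45.

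The chromosomal neighbours of the 2 genes past 2-fold were also listed. Around Cdkn1c in its imprinted domain, 9 of 11 measured genes lay below 0 with valproate, beside 60.7% of all genes. Their median of -0.26 became -0.13 with quantile normalization, -0.13 in the authors' deposited table and 0.09 with spike-in scaling. Cars, a tRNA synthetase gene, was at -0.61, and Tspan32, a dim probe near the detection floor, at -0.55 ± 0.28, within 2 technical SD. Kcnq1ot1, the noncoding RNA that silences this domain on the paternal chromosome, was at -0.15 with valproate and 0.09 with lamotrigine, and Slc22a18, a transporter gene, at 0.44 and 0.42; both were named after their values were seen. Beside Cdkn2a and Cdkn2b only 2 genes were measured, with a median of 0.35. Mtap, an enzyme gene of methionine salvage, was at 0.61 with valproate and 0.16 with lamotrigine, and Elavl2, a neuronal RNA-binding protein gene, was at 0.08 and -0.19.

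Among 13348 genes detected on all 3 arrays, clones, predicted genes and the gene itself left out, those nearest to Cdkn1c by distance over the 2 differences from DMSO were Helz2, a nuclear helicase gene (distance 0.02), Tap1, a peptide transporter gene of antigen presentation (0.06), and Nt5e, an ectonucleotidase gene (0.07). Helz2 read 47.0 with valproate, 18.8 with DMSO and 26.5 with lamotrigine. The nearest to Cdkn2a were Gca, a calcium-binding protein gene (0.01), Rtp4, a receptor transporter gene (0.03), and Sdc1, a syndecan gene (0.04). Rtp4 read 154 with valproate, 72.3 with DMSO and 79.4 with lamotrigine. Dim neighbours were Nt5e, at 19.2 with valproate, 7.60 with DMSO and 10.3 with lamotrigine, and Gca, at 40.1, 19.0 and 20.4. These distances rest on 3 arrays. All are smaller than the technical SDs of the Cdkn1c and Cdkn2a differences from DMSO (0.08 to 0.09), so spot noise can change which genes rank nearest.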

How the data were processed

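RNA of 3 cultures was measured on 1-colour Agilent mouse arrays. Per the file headers, spot intensity was extracted with Feature Extraction 10.7.1.1, background-subtracted and detrended within each array, and probes were annotated on mm9. The deposited table of intensity values, quantile normalized from its values, served as an alternative. Its making is not given in the sources used here.

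Levels were log2 processed signal minus the log2 75th percentile of each array, with spots of a probe averaged and outlier spots left out. Probes were joined to RefSeq genes by accession (27235), symbol (3581) or older symbol (565), and 24300 of 55681 had no gene. A gene was represented by its brightest probe. Differences were taken where most spots were well above background on both arrays, and otherwise as a bound against the detection floor (5.29 on the DMSO, 3.88 on the valproate and 4.63 on the lamotrigine array) or the gene's undetected signal, if higher. No test was possible with 1 array per treatment; precision is limited by the number of arrays. The technical SD of spots was 0.19 to 0.21 log2 at a scaled signal under 25 and 0.05 over 400.

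The members and gene lists were chosen with earlier results of these data known. Named were all members, the 3 genes nearest to each member past 2-fold, and from each list the genes past 2-fold or otherwise the 2 farthest from 0 with valproate. Alternatives were quantile normalization, median centring, spike-in scaling, normexp, the deposited table, 2 other detection rules, gene means over detected probes, keeping outlier spots, and other folds. The scripts were tested on simulated data. Python 3.11.15, R 4.3.3 and limma 3.58.1 (normexp, offset 50) were used.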

Additional observations from a re-analysis of the deposited data

How the results depend on the processing

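The levels were recomputed under 9 alternatives, and the 2-fold threshold was replaced by 1.5-fold and 3-fold. For valproate against DMSO, 2 genes past 2-fold became 1 with normexp background correction and 1 with the mean of detected probes (Cdkn2a fell below the threshold in each), and 0 at 3-fold. The CIP/KIP median of 0.52 moved to 0.61 with quantile normalization, 0.61 in the authors' deposited table and 0.87 with spike-in scaling. The INK4 median of 0.17 moved to 0.25 in the authors' deposited table and 0.52 with spike-in scaling. The gap between the families lay between 0.35 and 0.38 over the alternatives. For valproate against lamotrigine, 0 genes past 2-fold became 1 with spike-in scaling, 1 in the authors' deposited table and 2 at 1.5-fold. For lamotrigine against DMSO the count was 0 throughout. Of all genes, 300 were higher and 203 lower with valproate than with DMSO; the numbers were 111 and 80 with normexp, 744 and 77 with spike-in scaling, 862 and 1095 without a detection filter, 896 and 854 at 1.5-fold and 75 and 34 at 3-fold. Spike-in scaling adds 0.35 log2 to each valproate and 0.20 to each lamotrigine difference from DMSO, from 6 of 10 spike-in probes; the amount of spike-in RNA per sample is not given in the sources used here. For other moves the cause was not tested. No paired analysis was possible because each treatment had 1 array. The dim probes of Cdkn1a, Cdkn1b and Cdkn2a, with scaled signals under 25 on at least 1 array, had technical SDs of 0.21 to 0.28, so differences smaller than about 2 of these were not detectable.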
